A study of Saccharomyces cerevisiae with 10 samples.

Results

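Chromosomes III, VI and IX of the budding yeast Saccharomyces cerevisiae are 3 of its 16 chromosomes, all short, and both of their homologs were followed here at 1162 of the 13737 single nucleotide polymorphisms (SNPs) on the array, 8.46% of all. The members were every SNP whose probe name placed it on III (228 SNPs), VI (359) or IX (575). These chromosomes were picked because earlier results on the same arrays showed them high in the HK isolates, so the difference between HK isolates and zygotes is given below as a description and carries no test.

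Genomic DNA of 10 diploid isolates was hybridised to SNP microarrays, 1 array each, labelled with Cy5 and mixed with Cy3-labelled DNA of a control diploid, JSC24. The strain background of all 10 is given as W303-1AⅹYJM789, a hybrid of a laboratory strain with a clinical isolate whose genomes differ at many single nucleotides. The groups were 2 purified isolates of HK10 (A and B), 2 purified isolates of HK12 (A and B), 4 zygotes of the cross of MD893-1 with LSY3454-2, and 2 zygotes of the cross of MD893-2 with LSY3454-2. Cells were grown in YPD, a rich glucose medium, at 30 °C. No drug or other agent, and no genotype of the HK strains or of the crossed parents, is named in the labels. The labels call the zygotes independent, while A and B of an HK name may come from 1 culture, so p-values over arrays measure the spread between these samples, which may be partly technical.

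RNase H2 cuts DNA at ribonucleotides built into it during replication, and yeast that lacks the enzyme is known for loss of heterozygosity (LOH) and other genome changes. The labels do not say whether any isolate here lacks it. Chromosome III carries the mating-type locus, which sets the mating type of a haploid cell. Chromosome VI carries the genes for actin and beta-tubulin, the building blocks of actin cables and of microtubules, and IX carries SUC2, the gene for invertase, which splits sucrose. In a hybrid diploid each homolog carries its own set of alleles, so a chromosome can be read for the amount of its DNA and, apart from that, for the balance of its homologs.

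Each SNP had up to 4 probes, for an S and a Y allele on strands F and R. The labels do not say which parent S and Y stand for. The level of a SNP, s, is the mean of the log2 ratios of its S and Y probes against the control, set so that 0 is the array's own median over heterozygous SNPs. It therefore gives the amount of a chromosome relative to the rest of the same genome, as a mean over the cells of the culture, and the share of cells that carry a change cannot be told apart from the size of the change per cell. The allele balance, d, is the S log2 ratio minus the Y log2 ratio, and is near 0 where both alleles are kept in equal amounts. Where both are kept in unequal amounts, d lies away from 0. Both alleles were measured on at least 1 array at 1136 members, on all 10 arrays at 997, and on none at 26. Per array, d was available at 1046 to 1129 members.

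Chromosome III was the sparsest of the 16 chromosomes in SNPs, at 0.794 SNPs per kb with a median spacing of 467 bp. Chromosome VI had 1.495 SNPs per kb (median spacing 268 bp) and IX had 1.41 per kb (321 bp), against 1.18 per kb and 369 bp over all chromosomes. The SNPs ran from position 16344 to 303395 on III, from 26582 to 266681 on VI and from 25054 to 431447 on IX, as the deposited table gives positions. Its genome build is not given in the sources used here. The widest gaps without a SNP were 15.4 kb on III (216407 to 231841), 13.9 kb on VI (212097 to 226012) and 11.9 kb on IX (341647 to 353553), and nothing was seen inside them. Arms and distances to the centromere were not assigned, and no gene was placed on a position, because the build is not named. Over all chromosomes, HK arrays lacked values for 5.53% to 7.47% of probes and zygote arrays for 0.857% to 10.5%. The noise of d was 0.138 to 0.168 for HK arrays, against 0.142 to 0.272 for zygote arrays.

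All 3 chromosomes stood above the array's median level in every HK isolate and near it in every zygote, each at a level of its own. Chromosome VI was highest, with a median s of 0.62 and 0.59 in the HK10 isolates (A, then B) and 0.65 and 0.62 in the HK12 isolates, against a lowest value of -0.028, a median of -0.0030 and a highest value of 0.0081 over the 6 zygotes. The mean was 0.62 ± 0.02 in the HK isolates (SD, n = 4) and -0.0081 ± 0.016 in the zygotes (SD, n = 6). The difference of 0.63 on the log2 scale is a 1.54-fold ratio.

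Chromosome III had a median s of 0.43 and 0.45 in the HK10 isolates (A, then B) and 0.48 and 0.45 in the HK12 isolates, against a lowest value of -0.033, a median of -0.0073 and a highest value of 0.013 in the zygotes. The HK isolates averaged 0.46 ± 0.02 (SD, n = 4), against -0.0081 ± 0.018 for the zygotes (SD, n = 6). They differed by 0.46, or 1.38-fold. Chromosome IX was the lowest, at 0.27 and 0.26 in the HK10 isolates (A, then B) and 0.29 and 0.28 in the HK12 isolates, against -0.037, -0.017 and -0.0031 as the lowest, median and highest value of the zygotes. The HK isolates averaged 0.28 ± 0.01 (SD, n = 4), against -0.020 ± 0.014 for the zygotes (SD, n = 6). They differed by 0.29, or 1.23-fold. The lowest HK isolate lay far above the highest zygote on all 3 chromosomes, and the HK ranges of VI, III and IX did not overlap one another. The difference moved only between 0.62 and 0.64 on VI, 0.45 and 0.47 on III, and 0.29 and 0.30 on IX when any 1 of the 10 arrays was left out. HK isolates and zygotes differ at once in strain and in origin, and the labels give no array batch, so these cannot be told apart.

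For comparison, chromosome I had an HK mean of 0.68 ± 0.03, above VI, while VIII (0.16 ± 0.01) and V (0.15 ± 0.01) lay below IX (SD, n = 4 each). The gap between IX and VIII in the HK isolates was several times the spread of either.

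**Figure D1:**
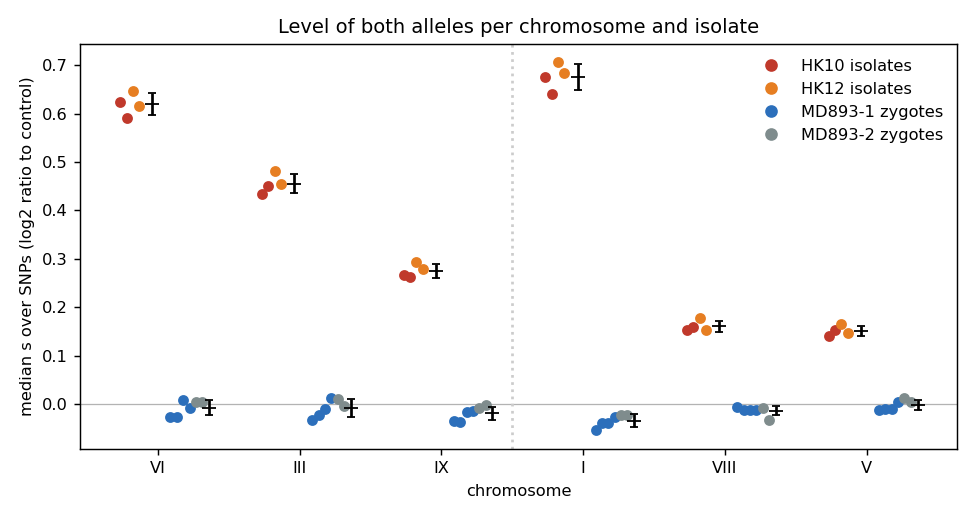
Median s, the level of both alleles as a log2 ratio to the control, over the SNPs of chromosomes VI, III and IX and, right of the dotted line, I, VIII and V. Each point is 1 isolate, HK isolates left of the zygotes, and the bars give mean and SD: VI sits at 0.62, III at 0.46 and IX at 0.28 in the HK isolates, and all zygotes lie near 0.

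The high level was shared by nearly all SNPs of a chromosome. The share of SNPs with s above 0 averaged 99.2% ± 0.740 on VI, 98.2% ± 1.32 on III and 94.6% ± 2.16 on IX in the HK isolates (SD, n = 4), and 47.4% ± 5.01, 48.3% ± 4.58 and 44.3% ± 3.93 on the same chromosomes in the zygotes (SD, n = 6). Among the 997 members measured on all 10 arrays, all 4 HK isolates lay above all 6 zygotes at 806 (80.8%). The background was 13.7% of the 11723 SNPs of all chromosomes, with the members counted in it. The 806 were 269 of 285 SNPs on VI (94.4%), 176 of 195 on III (90.3%) and 361 of 517 on IX (69.8%). At 0 members did all HK isolates lie below all zygotes. This is the contrast that chose the chromosomes, so nothing further is read from these counts.

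The SNP with the largest difference on VI, at 259891, had an s of 0.77 ± 0.06 in the HK isolates (SD, n = 4) and -0.15 ± 0.07 in the zygotes (SD, n = 6). The smallest difference on VI was at 177733, with 0.16 ± 0.17 in the HK isolates and -0.027 ± 0.23 in the zygotes. On IX the largest was at 230665, where the HK isolates had 0.36 ± 0.06 and the zygotes -0.40 ± 0.47, and the smallest was at 218181, with -0.0092 ± 0.16 in the HK isolates and 0.037 ± 0.12 in the zygotes. On III the largest was at 113590 (0.23 ± 0.17 in the HK isolates and -0.55 ± 1.07 in the zygotes) and the smallest at 115610 (-0.11 ± 0.15 in the HK isolates and -0.25 ± 0.34 in the zygotes). At 113590 and 230665 the zygotes ran down to an s of -2.74 and -0.99. At 113590 the zygote median was -0.082 and the highest value -0.044, so the lowest zygote made most of the difference and the spread there. At 230665 the zygotes were widely spread, with a median of -0.32 and a highest value of 0.089. The SNP at 259891 on VI had tight values in both sets.

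Both homologs shared the high level. On VI the S allele of the HK isolates lay 0.59 to 0.64 above the zygote mean and the Y allele 0.62 to 0.66 above it, with Y ahead of S by 0.022 to 0.041 in each of the 4. On III the S allele lay 0.43 to 0.47 above the zygote mean and the Y allele 0.48 to 0.50, with Y ahead by 0.038 to 0.058. On IX the S allele lay 0.27 to 0.31 above and the Y allele 0.29 to 0.30, and the gap was 0.011 (A) and 0.024 (B) in HK10, and -0.0039 (A) and -0.0034 (B) in HK12. These gaps are small beside the height of either allele above the zygotes, and smaller than the 0.16 to 0.18 by which Y was ahead of S on chromosome I in the same isolates.

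The median d carried the same picture. On III it was -0.039 ± 0.010 in the HK isolates (SD, n = 4) and 0.010 ± 0.014 in the zygotes (SD, n = 6), and no HK isolate overlapped the zygotes, whose lowest value was -0.017. On VI it was -0.021 ± 0.020 in the HK isolates and -0.0036 ± 0.013 in the zygotes, with overlapping ranges. On IX it was 0.012 ± 0.015 in the HK isolates and 0.015 ± 0.012 in the zygotes, again overlapping. The HK difference in d was -0.05 on III with the median centring and -0.03 on the deposited scale, and on VI it was -0.018 as a median over SNPs and 0.0054 as a mean, so balance differences of this size depend on the summary.

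As a yardstick within the same arrays, the HK isolates held 13 long LOH tracts of over 50 SNPs on other chromosomes. There the kept allele lay 0.66 ± 0.03 above heterozygous SNPs of the same chromosome and array, between 0.58 and 0.71 (SD over the 13 tracts), and the lost allele lay at -2.73 ± 0.16 against them. The height of each allele on VI above the zygote mean, 0.59 to 0.66, was close in value to that of a kept allele in LOH, though the baselines differ. On VI, III and IX no stretch lost an allele. Tracts of 1 isolate share its array, so these values describe the scale of the arrays and were not tested.

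**Figure D2:**
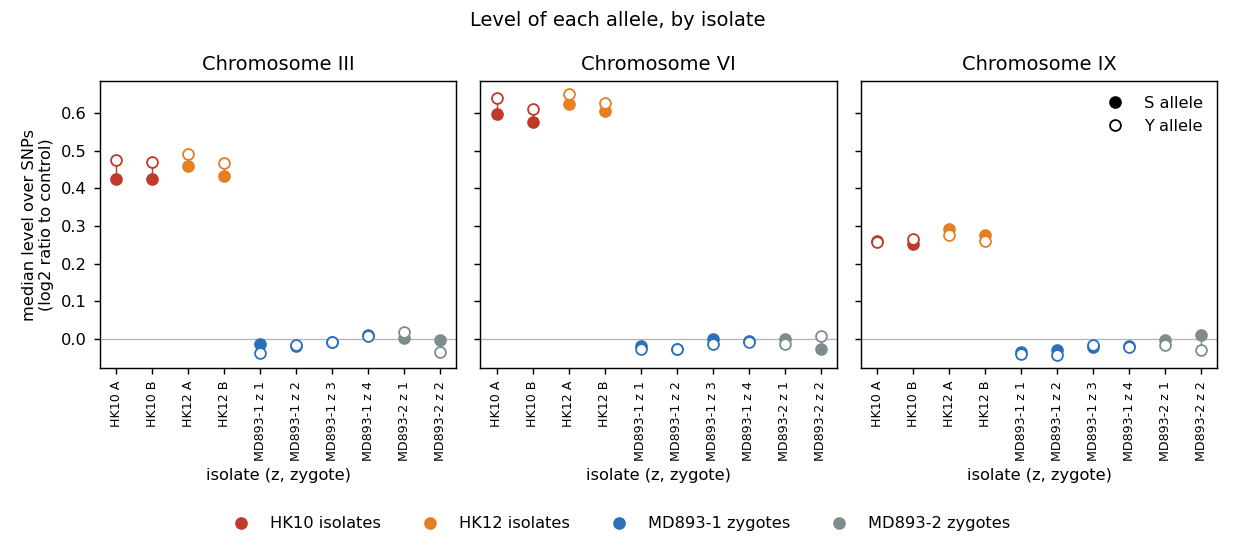
Median level of the S allele (filled) and the Y allele (open) on chromosomes III, VI and IX, in log2 ratio to the control, with 1 column per isolate and a line joining its alleles. In the HK isolates, left, both alleles stand clear of 0 and lie close together, and in the zygotes both lie near 0.

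Along the chromosomes the level of the HK isolates was broadly even. Exceptions, described further on, were the left stretch of III, single bins of VI and the first 8 SNPs of VI. With each chromosome cut into left, middle and right stretches of equal length, the HK means of s were 0.61 ± 0.02, 0.61 ± 0.02 and 0.64 ± 0.03 on VI, 0.49 ± 0.01, 0.43 ± 0.02 and 0.45 ± 0.03 on III, and 0.28 ± 0.01, 0.27 ± 0.01 and 0.27 ± 0.02 on IX (SD, n = 4 each). The left stretch of III stood above its middle stretch in the HK isolates with no overlap, the lowest left value being 0.48 and the highest middle value 0.45, whereas the zygotes had -0.015 ± 0.024 and 0.0054 ± 0.039 there (SD, n = 6).

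The outer 30 kb of VI and IX lay close to the stretch between them. On VI the HK isolates had 0.63 ± 0.04 in the left 30 kb, 0.62 ± 0.05 in the right 30 kb and 0.62 ± 0.02 between them. On IX these values were 0.28 ± 0.02, 0.28 ± 0.04 and 0.27 ± 0.01. On III they were 0.51 ± 0.04, 0.45 ± 0.02 and 0.45 ± 0.02 (SD, n = 4 each), and the left value rests on 9 SNPs. Across SNPs, the Spearman correlation of the mean HK s with the distance to the nearer outermost SNP was -0.11 on VI (299 SNPs), -0.12 on III (201) and -0.027 on IX (527). The same measure in the zygotes was 0.10, -0.029 and -0.039. SNPs of a chromosome share arrays and are not independent, so these are descriptions.

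In 20 kb bins with at least 5 SNPs, s of single HK isolates ran from 0.43 to 0.73 over the 12 bins of VI, from 0.34 to 0.58 over the 12 bins of III and from 0.18 to 0.38 over the 21 bins of IX. The zygote bins lay between -0.14 and 0.13 on VI, -0.19 and 0.08 on III and -0.13 and 0.16 on IX. The HK and zygote ranges over bins therefore did not meet on any of the 3 chromosomes. No bin of an HK isolate had a median d further from 0 than 0.13 on VI, 0.14 on III or 0.16 on IX. The lowest HK bin mean of VI, 0.48 ± 0.04, was the second bin from its left end and rests on 9 SNPs, and the highest, 0.71 ± 0.02, was the second from its right end (SD, n = 4 each).

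The up and down steps between bins and SNPs were partly shared between isolates. Over the members measured on both arrays of a pair, the Spearman correlation of s was 0.76 between HK10 A and B and 0.57 between HK12 A and B. Between HK10 and HK12 isolates it was 0.48 to 0.71. It was 0.38 to 0.70 among MD893-1 zygotes, 0.73 between the MD893-2 zygotes, and 0.16 to 0.53 between an HK isolate and a zygote. Each array's median of a chromosome was subtracted first, so the 3 chromosome levels do not enter these values. All arrays share the probes and the control DNA.

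**Figure D3:**
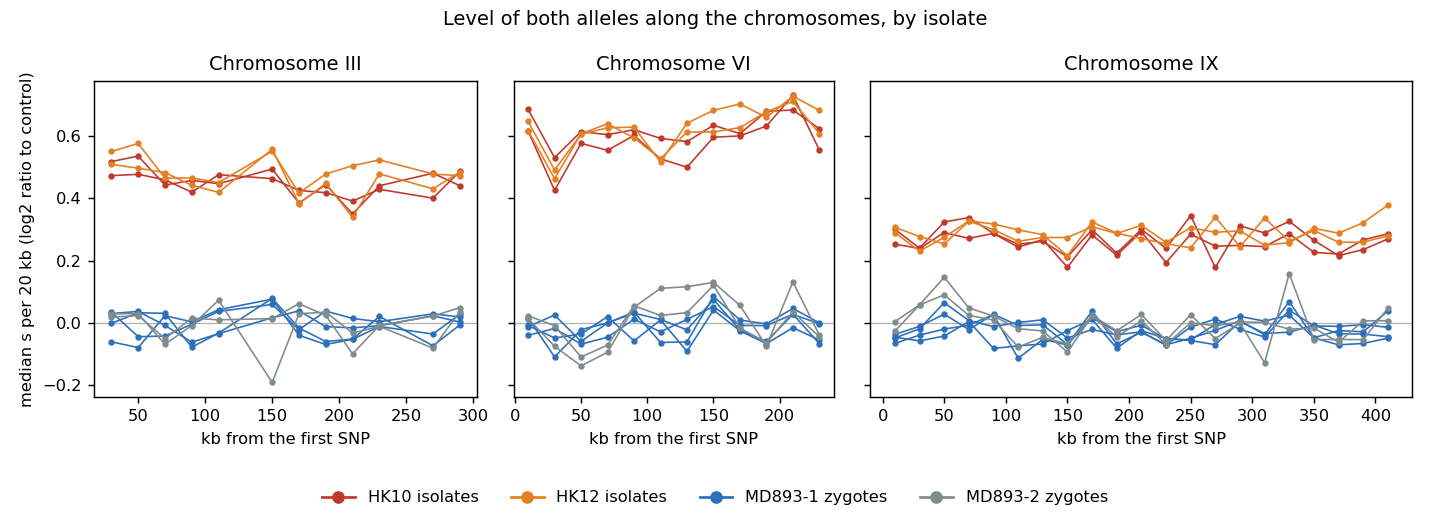
Median s per 20 kb bin against the distance from the first measured SNP, for chromosomes III, VI and IX, with 1 line per isolate. The HK isolates run between 0.34 and 0.58 on III, 0.43 and 0.73 on VI and 0.18 and 0.38 on IX, and the zygotes lie around 0.

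Heterozygosity was kept along all 3 chromosomes at the resolution of the SNPs. A hidden Markov model for heterozygous and homozygous stretches called 0 tracts on the members in the 10 isolates, and 0 runs of any shorter length, against 62 tracts on the other chromosomes. The model had no state for kept alleles in unequal amounts. Values of d further than 1.5 from 0 were 21 of 10913 (0.192%), 6 of 4326 in the HK isolates (0.139%) and 15 of 6587 in the zygotes (0.228%). They lay at 20 SNPs, never with the same sign at adjacent measured SNPs of an isolate, and no SNP had one in every isolate. A change that spared the SNPs, such as one inside the gaps named above, would not be seen.

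The farthest was a d of -5.60 at 113590 on III in MD893-2 zygote 1, where the median over the 10 isolates was -0.24. It was followed by 4.66 at 26488 on IX in MD893-2 zygote 2, at a SNP measured on 6 arrays, and by -3.72 at 115112 on III in MD893-2 zygote 1, where the median was -0.090. The HK values past 1.5 included 3.01 at 60221 on VI and 2.68 at 33549 on IX, both in HK12 A and both at SNPs measured on 6 arrays. At 1 SNP, 293839 on III, d was low in all 10 isolates, from -1.43 to -0.74 in the HK isolates and from -1.55 to -1.11 in the zygotes. Its S allele had a median level of -0.39 and its Y allele 0.87.

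HK10 and HK12 were then compared SNP by SNP, a contrast the choice of chromosomes did not use. With limma over all 12163 testable SNPs of the genome and Benjamini-Hochberg adjustment, d differed between HK10 and HK12 at 7 of 1023 members (adjusted p under 0.05), against a background of 15.5%. Of these, 5 lay on VI, 2 on IX and 0 on III, with d higher in HK10 at 2 and lower at 5. An unadjusted p under 0.05 was found at 53 of the 1023 members, close to the fraction of 0.05 expected if no member differed. The adjustment spans all chromosomes, where a far larger share was called, so it does not bound the share of false calls among the members. The median difference in d over the members was 0.025. Centring takes 1 constant per array from d, and on the deposited scale the difference at 27580 on VI was -0.773 in place of -0.733. That move is larger than the median difference, so the sign of the median depends on the centring. The level s differed at 10 of 1023 members, against a background of 11.2%, with 6 on VI, 4 on IX and 0 on III, higher in HK10 at 3 and lower at 7. Leaving out 1 array gave 5 to 18 members for d (18 without HK10 A, 15 without HK12 B) and 2 to 19 for s (18 without HK10 A, 2 without HK12 A, 19 without HK12 B).

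Of these calls, 3 of the 7 in d and 3 of the 10 in s lay at the left end of VI. Its first 8 SNPs span 2068 bp from 26582 to 28650, and those at 27580, 27751 and 28134 were called for both measures. The stretch was chosen after its values were seen. At 27580, d was -0.48 and -0.26 in the HK10 isolates, against 0.27 and 0.46 in the HK12 isolates (A before B here and below), a difference of -0.73 ± 0.14 (SE, limma adjusted p = 0.00633). At the same SNP s was 0.85 and 0.79 in the HK10 isolates, against 0.32 and 0.35 in the HK12 isolates (difference 0.48 ± 0.06 SE, limma adjusted p = 0.000268). At both measures HK10 and HK12 were well apart at this SNP, HK10 high in s and low in d.

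The SNP at 27751 had an s of 0.97 and 0.97 in the HK10 isolates, against 0.31 and 0.44 in the HK12 isolates (difference 0.59 ± 0.09 SE, limma adjusted p = 0.000726). Its d was -0.23 and -0.072 in the HK10 isolates, against 0.36 and 0.35 in the HK12 isolates (difference -0.51 ± 0.13 SE, limma adjusted p = 0.0257). At 28134, s was 0.90 and 0.71 in the HK10 isolates, against 0.39 and 0.37 in the HK12 isolates (difference 0.42 ± 0.10 SE, limma adjusted p = 0.0180), and d differed by -0.73 ± 0.20 SE (limma adjusted p = 0.0468). The SNPs at 27580, 27751 and 28134 are not among those with all 4 probes measured on all 10 arrays. That setting could not be run for them and is not counted next. The s calls at 27580 and 27751 held in 8 of 8 alternative settings, with adjusted p of at most 0.0126 and 0.0145. The d call at 27580 held in 7 of 8 (adjusted p 0.00249 to 0.0971), and the d call at 27751 and the s call at 28134 in 4 of 8 each.

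The difference at this end was larger in the Y allele than in the S allele. Over the 8 SNPs the median Y level was 1.09 in HK10 A and 0.96 in HK10 B, where the Y probes of 4 SNPs gave values, against 0.13 (HK12 A) and 0.27 (HK12 B). Over the zygotes it lay between -0.013 and 0.027. Single SNPs ran from 0.74 to 1.12 in the HK10 isolates and from -0.19 to 0.41 in the HK12 isolates, with no overlap. Against each isolate's own Y level on VI, this end was higher by 0.45 in HK10 A and 0.35 in HK10 B, while HK12 A and B lay at -0.52 and -0.36 from theirs. The S allele of these SNPs was at 0.77 and 0.85 in the HK10 isolates, against 0.59 and 0.61 in the HK12 isolates, which put HK10 at 0.17 and 0.27 above its own S level on VI, and HK12 at -0.035 and -0.0014 from its own.

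From the 15 next SNPs on, 31472 to 35102, the median Y level was close to that of the chromosome, at 0.63 and 0.59 in the HK10 isolates and 0.73 and 0.68 in the HK12 isolates. Single SNPs there still varied, with a Y level of -1.21 in HK10 B at 31472 and of -0.26 and -0.11 in HK12 B at 31519 and 32192, so the inner limit of the stretch is not fixed, and the outer limit cannot be read since 26582 is the first SNP on the array. In a scan of the difference between HK10 and HK12 in windows of 7 SNPs, the Y allele reached 0.87 at this end. Elsewhere its farthest window from 0 was -0.31 on VI, -0.16 on III and 0.18 on IX. The S window farthest from 0 was -0.31, centred at 36913 on VI, with HK10 below HK12. At the left end itself the S window reached 0.19, centred at 27424. The probes of these SNPs lie close together, so the 8 SNPs report on 1 stretch of DNA.

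**Figure D4:**
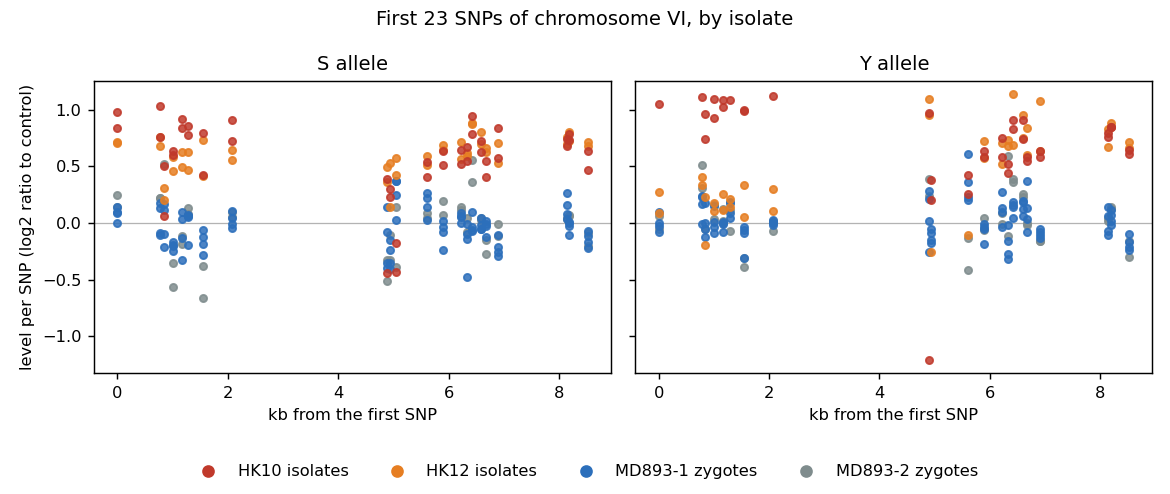
Level of the S allele (left panel) and of the Y allele (right panel) at the first 23 SNPs of chromosome VI, in log2 ratio to the control, against the distance from the first SNP. Each point is 1 isolate at 1 SNP: at the first 8 SNPs, up to 2068 bp, the Y allele lies between 0.74 and 1.12 in the HK10 isolates and between -0.19 and 0.41 in the HK12 isolates, and beyond them the values of both strains overlap.

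The remaining calls between HK10 and HK12 lay elsewhere on VI and on IX. On IX, d at 268270 was -0.21 and -0.17 in the HK10 isolates, against 0.19 and 0.32 in the HK12 isolates (difference -0.44 ± 0.10 SE, limma adjusted p = 0.0127). At 189828 on IX both measures were called, d with -0.61 ± 0.15 SE (limma adjusted p = 0.0325) and s with -0.34 ± 0.09 SE (limma adjusted p = 0.0431). The largest s difference on IX was at 368016, with 0.083 and 0.040 in the HK10 isolates, against 0.50 and 0.46 in the HK12 isolates (difference -0.42 ± 0.10 SE, limma adjusted p = 0.0158). At 189352, near the SNP at 189828, s was 0.13 and 0.13 in the HK10 isolates, against 0.43 and 0.43 in the HK12 isolates (difference -0.30 ± 0.07 SE, limma adjusted p = 0.0161).

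At the right end of VI, 264113 and 264161 were both called for d, higher in HK10 by 0.64 ± 0.18 SE and 0.30 ± 0.08 SE (limma adjusted p = 0.0465 and 0.0434). At 264161, d was 0.097 and 0.10 in the HK10 isolates, against -0.22 and -0.19 in the HK12 isolates. Of the calls of the smallest adjusted p outside the left end of VI, none held in every setting, s at 368016 holding in 6 of 8 settings, d at 268270 in 4 of 8, d at 189828 in 3 of 6, s at 189352 in 3 of 8 and d at 264161 in 2 of 8.

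Whole chromosomes were compared by exact permutation, which with 2 arrays of HK10 against 2 of HK12 cannot reach a p under 0.05. The HK12 mean of s lay above the HK10 mean on all 3 chromosomes, by 0.023 on VI with overlapping isolates and by 0.026 on III and 0.022 on IX without overlap. It was also higher on I (0.695 against 0.659), VIII (0.165 against 0.155) and V (0.155 against 0.147). Over SNPs, the median of HK10 minus HK12 in s was -0.018 for the members and -0.013 for all chromosomes. Exact two-sided permutation tests over the 6 possible splits gave p = 0.333 for III and IX, the smallest p that 2 against 2 allow, and p = 0.667 for VI. For d the differences of HK10 minus HK12 were 0.020 on VI, 0.014 on III and 0.024 on IX, with exact p = 0.667, 0.333 and 0.333. The sign of these d differences depends on the centring. On the deposited scale the difference at 27580 was -0.773 in place of -0.733, a larger move than any of them. HK10 also had the higher mean d on I (-0.099 against -0.152), VIII (0.00033 against -0.038) and V (0.023 against -0.010). After adjustment over the 12 such tests of both contrasts, every p was 0.667.

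Between the crosses, the members gave no call for allele balance. Over 1014 testable members, 0 differed in d between MD893-1 and MD893-2 zygotes by limma at an adjusted p under 0.05, against a background of 0.042%. An unadjusted p under 0.05 was found at 107, above the fraction of 0.05 expected if no member differed. Without MD893-2 zygote 1 there were 10 calls, and without MD893-2 zygote 2 there were 6. The median difference in d over the members was 0.0035.

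For the level s, 42 of 1014 members differed between MD893-1 and MD893-2 zygotes, against a background of 3.42%, with 28 on IX, 8 on VI and 6 on III, higher in MD893-1 at 16 and lower at 26. The members' share, near that of all SNPs, is not a result about these chromosomes. These calls were fragile. Leaving out any 1 of the 4 MD893-1 zygotes gave 0, leaving out MD893-2 zygote 1 gave 99 and leaving out MD893-2 zygote 2 gave 5. The arrays of the crosses also differed in probes without a value, at 1.05% to 3.95% of the members' probes in MD893-1 zygotes and 9.99% to 10.3% in MD893-2 zygotes. The interquartile range of s over SNPs averaged 0.17 on III, 0.18 on VI and 0.18 on IX in MD893-1 zygotes. In MD893-2 zygotes it averaged 0.30, 0.30 and 0.28, while the fit used 1 shared spread. The part of either in these calls was not tested. By limma, 300 of the 1014 members had an unadjusted p under 0.05 for s. This is above the fraction of 0.05 expected if no member differed.

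The call of smallest adjusted p was at 80816 on VI, with an s of 0.23, 0.22, 0.11 and 0.06 in MD893-1 zygotes 1 to 4, against -0.44 and -0.45 in MD893-2 zygotes 1 and 2 (difference 0.60 ± 0.07 SE, limma adjusted p = 0.0217). On VI, 116168 followed with a difference of 0.35 ± 0.06 SE, and on IX 218541, 154819 and 34076 with 0.37 ± 0.06, 0.37 ± 0.06 and 0.39 ± 0.06 SE (limma adjusted p = 0.0318 for each of the 4). All 5 were higher in MD893-1, and none had overlapping groups. The MD893-1 mean of s was lower by 0.017 on VI, 0.016 on III and 0.021 on IX, with exact two-sided permutation p = 0.400, 0.400 and 0.133 over 15 splits. The last is the smallest p that 4 against 2 allow, and on IX the crosses did not overlap.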

How the data were processed

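Per the labels' protocols, genomic DNA was labelled with Cy5, mixed with Cy3-labelled JSC24 DNA and hybridised to SNP arrays. The authors deposited 1 linear ratio per probe and array for 53664 probes (4556 of members), and the ratios of each array average 1 in the deposited values. The sources used here do not give the background correction, feature filter or genome build. The columns carry MD891 and MD892, matched to the MD893-1 and MD893-2 crosses through each sample's source strain. Ratios were taken to log2 with no loess or quantile step, averaged per SNP and allele, and centred per array (d on its median, s on the median of heterozygous SNPs). The hidden Markov model used Student t densities with 4 degrees of freedom at 0 (noise at least 0.1), 3 and -3 (scale 0.8), a state change probability of 0.0001 per SNP, and tracts of at least 5 SNPs. Group contrasts used lmFit and eBayes of limma 3.58.1 in R 4.3.3 on all 10 arrays with 4 group means, for SNPs with 2 values in each compared group, adjusted over all SNPs, and other steps used Python 3.11.15. The scripts were tested on simulated data. Precision is limited by the small number of arrays.

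Members, lists and tests were chosen with earlier results of these data known. SNPs were named by rule: per chromosome the highest and lowest HK difference on all 10 arrays, up to 5 of smallest adjusted p per contrast, runs of 3 far SNPs, and SNPs far in all isolates. Others named (the left end of VI, 264113, s at 189828, the common SNP 293839 and single far values) were chosen after their values were seen.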

Additional observations from a re-analysis of the deposited data

How the results depend on the processing

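The levels of III, VI and IX moved by less than the spread between isolates under the deposited scale, a mean over SNPs, SNPs measured on all arrays, strand F or R alone, no chromosome ends, and any array left out. The HK difference in d was -0.030 on III and 0.015 on IX on the deposited scale; -0.025 on III and 0.0054 on VI as a mean over SNPs; and 0.017 (strand F) and -0.021 (strand R) on IX. Restricted to SNPs with all 4 probes on all 10 arrays, HK10 and HK12 differed at 1 member in d and 3 in s. This set leaves out the called SNPs at 27580, 27751 and 28134 on VI. With the replicate block the counts were 1 in d and 4 in s for HK10 against HK12, and 0 in s between the crosses. The numbers do not pair samples by the labels, and deviations of same-numbered samples correlated at 0.051 (d) and 0.087 (s) for HK A and B and at -0.24 and -0.0061 for zygotes 1 and 2. A trended, robust spread gave 78 members in s between the crosses. Leaving out 1 array gave 5 to 18 (d) and 2 to 19 (s) members for HK10 against HK12, and 0 to 10 (d) and 0 to 99 (s) between the crosses. The cause of these changes was not tested, beyond fewer SNPs or arrays where a setting removes them. Of the named SNPs' values under alternatives, 71 stayed past the threshold, 59 lost the call and 0 changed sign. Limits: 1 array per isolate, relative levels, a resolution set by SNP spacing, and no build for positions.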
